A study of Mus musculus with 6 samples.

Results

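The enzymes, transporters and regulators of glycolysis and the pentose phosphate pathway, with the hypoxia factor Hif1a and 5 genes of its response, were followed in T-ALL, a mouse leukaemia of T-cell precursors, with and without Phf6. Members were taken by gene symbol from a list of 44. Of these, 43 were found in the deposited table, and Pdk4 was not analysed here. Aldoa stood on 2 rows with different identifiers, so the set held 44 rows of the 23306 that carry a gene identifier. All 44 rows passed the filter on low values.

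Glycolysis splits glucose into pyruvate and yields ATP without oxygen. Hexokinase runs its first step and phosphofructokinase its first committed step. Lactate dehydrogenase regenerates the NAD+ that glycolysis consumes, and the pyruvate dehydrogenase complex links the pathway to the citric acid cycle. The pentose phosphate pathway branches off glucose-6-phosphate to make NADPH and ribose for nucleotides. Leukaemic T cells are known for high glucose use, and both MYC and the hypoxia-inducible factors are known to switch on many of these genes.

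PolyA RNA was sequenced from isogenic T-ALL tumour cells that were collected from the bone marrow of C57BL/6 mice. Phf6, which encodes a nuclear protein with PHD-like zinc fingers that is mutated in human T-ALL, was wild type in 3 samples (Phf6-WT) and knocked out in 3 (Phf6-KO). Mice received either tamoxifen, which switches on an inducible Cre recombinase that deletes Phf6, or corn oil as vehicle. Drug exposure and loss of Phf6 cannot be told apart from the labels, and the labels do not give the promoter that drives Cre, the age of the mice or what started the leukaemia. Nothing in the labels says that samples came from separate animals, so the p-values measure only the spread between these samples. Values are listed in the order of libraries 1, 2 and 3 of each group, and gene positions are on GRCm38 (GENCODE M21).

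Libraries held 46067511 to 54953145 reads assigned to genes. Phf6 stood at 5508, 4240 and 5075 normalised reads in wild type and at 1781, 2337 and 1755 in knockout. Each knockout library was below each wild-type one, and none was at 0 (log2 fold change -1.34 ± 0.13, SE; limma adjusted p = 0.00184). T-lineage markers were abundant in every library. Of 17 listed genes 16 were found (all but Bcl11b), and none of the 16 was at 0. They summed to 7099 to 7741 CPM (reads scaled to a common library total) in wild type and 6360 to 7384 in knockout. Of these 16 genes, 3 fell (Cd247, Tcf7 and Cd5), beside 3.43% of all genes. Only 3 of the 16 had a positive log2 fold change, and their median was -0.17, beside -0.01 over all genes. Library 2 of wild type lay nearest to the knockouts on the first principal component (-11.8, against -47.0 and -45.1 for the other wild-type libraries and 21.2 to 44.3 for knockout).

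Most glycolytic transcripts were lower in knockout. At a limma adjusted p below 0.05 over all 17993 genes tested, 11 members fell (Hk1, Pfkl, Aldoa, Tpi1, Pgk1, Pgam1, Ldha, Pdk2, Pdha1, P4ha1 and Taldo1), 1 rose (Hk3) and 32 were not called. Over all genes tested, 3.43% fell (618 genes) and 5.32% rose (957 genes). Of the 44 rows, 33 had a negative log2 fold change, with a median of -0.23 beside -0.01 over all genes. Because RNA was measured in bulk, fewer cells of a type and less RNA per cell cannot be told apart in these results.

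The falls were modest in size. Among the 11 members that fell, the mean in knockout was between 19.9% (Pgk1) and 40.7% (Pdk2) below that in wild type. In 24 of the 44 rows each knockout library lay below each wild-type library, as in 16.2% of all genes, and in 3 (Hk3, Pfkfb1 and Pfkfb4) each lay above, as in 15%. When libraries were scaled by their totals alone, 16 rows rather than 24 had knockout wholly below wild type. A negative log2 fold change was then seen in 31 rows rather than 33. The 16.2% holds for the authors' scaling, and no such share of all genes was computed with totals. The median log2 fold change over all genes was 0.07 with totals and -0.01 with the authors' scaling. All 12 called members were also called by edgeR and by DESeq2 on the recovered reads. edgeR called 11 falls among the members (2.84% of all genes) and 1 rise (5.32%). DESeq2 called 15 falls (5.02%), adding Hk2, Eno1, Pkm and Pgd, and 1 rise (7.39%). Without wild-type library 1, or without knockout library 3, the only calls among the members were the fall of Pfkl and the rise of Hk3. Without wild-type library 3 there were 5 falls, and without knockout library 2 there were 7. Over the 6 fits that each left out 1 library, Pgk1 was called in 0, Aldoa, Pdk2 and Pdha1 in 1, Hk1 in 2, Ldha and Taldo1 in 3, and Tpi1, Pgam1 and P4ha1 in 4. Without both number-2 libraries 11 members fell and 1 rose.

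The direction varied with abundance. Abundant genes fell more often over the whole table: of 7587 genes with a mean of at least 1000 normalised reads, 5.87% fell, 2.07% rose and 64.3% had a negative log2 fold change (median -0.07). Of the 33 members at that abundance, 10 fell, 30 were negative (median -0.26), and 23 had knockout wholly below wild type, as did 24.4% of all genes of that abundance. Of the 11 scarcer members, 8 were positive, with a median of 0.32 beside 0.08 for all scarcer genes. Across the 44 rows the mean value and the log2 fold change had a Spearman rho of -0.42, beside -0.25 across all 17993 genes. Genes of the same 6 libraries are not independent, so both are descriptions.

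**Figure D1:**
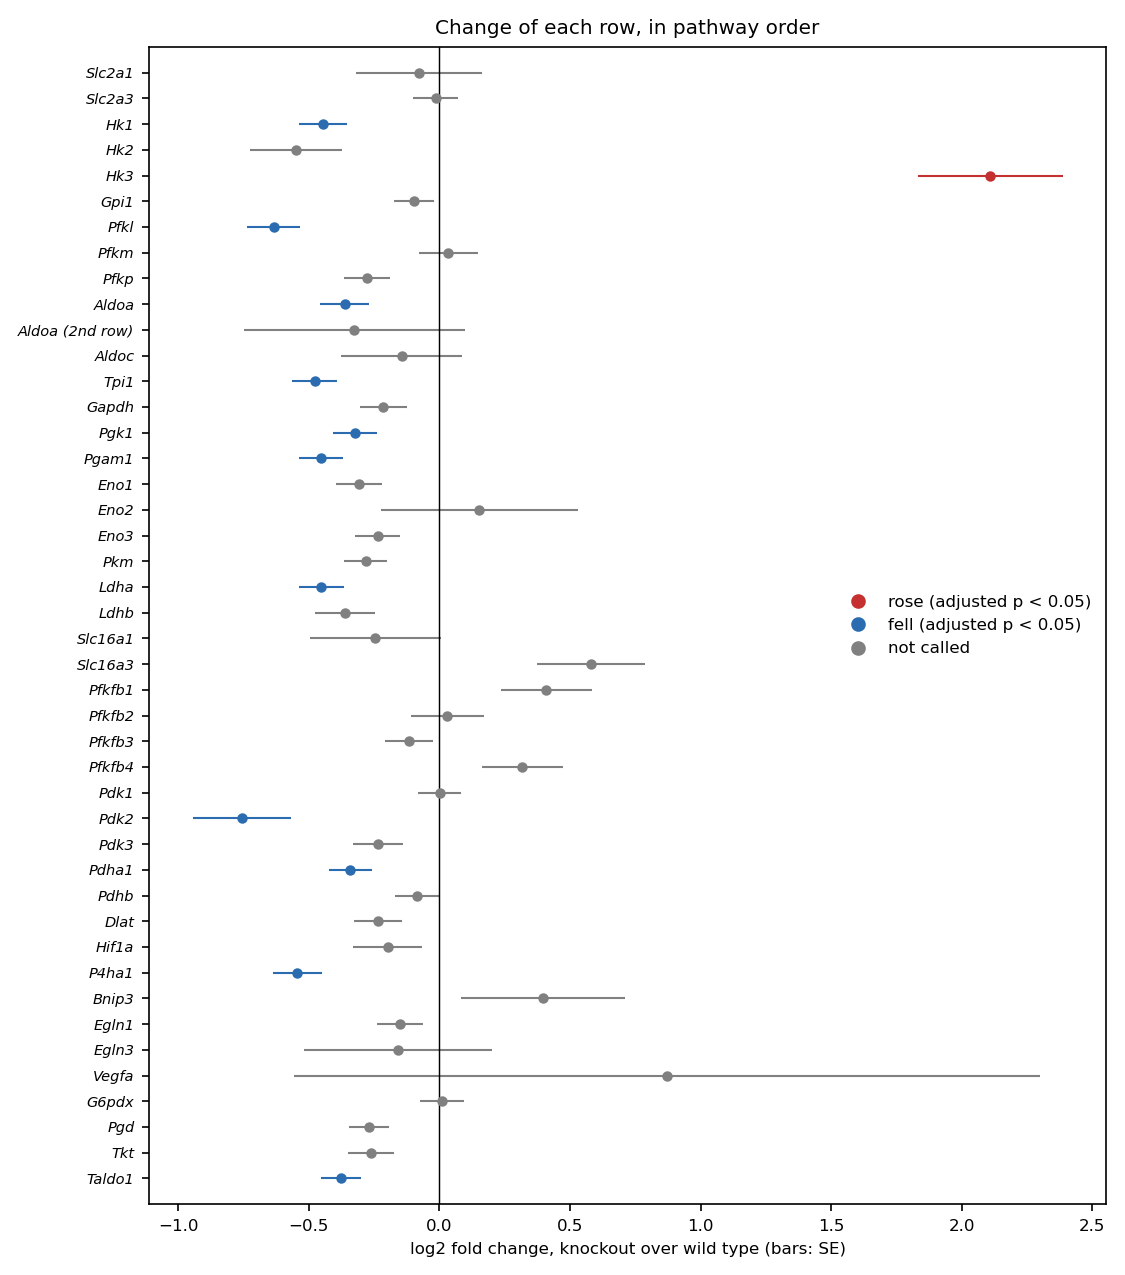
Log2 fold change of knockout over wild type for each of the 44 rows in pathway order (x axis; points are limma estimates on log2(normalised reads + 2), bars are 1 SE). The 11 rows that fell lie between -0.76 (Pdk2) and -0.32 (Pgk1), Hk3 alone lies beyond 2, and the widest bar belongs to Vegfa.

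Summed over the members of a step and divided by exon length, transcript was lower in knockout at every step from hexokinase to pyruvate kinase. In all 10 of these steps each knockout library was below each wild-type library, though this no longer held for glucose-6-phosphate isomerase with TMM, upper quartile or total scaling, or for glyceraldehyde-3-phosphate dehydrogenase with upper quartile or total scaling. The triosephosphate isomerase step was lower by 28.2%, the phosphoglycerate mutase step by 26.8% and aldolase by 22.3%. The drop was smallest at glucose-6-phosphate isomerase (6.49%) and glyceraldehyde-3-phosphate dehydrogenase (13.6%). Lactate dehydrogenase was lower by 26.3%, non-oxidative pentose phosphate enzymes by 19.2% and the pyruvate dehydrogenase complex by 14.7%. Groups overlapped for glucose uptake, monocarboxylate transport, the fructose-2,6-bisphosphate enzymes, the pyruvate dehydrogenase kinases and the hypoxia genes, and with total scaling also for the oxidative pentose phosphate enzymes. Together the 44 rows took 1.05% ± 0.0224 of all reads in wild type and 0.915% ± 0.0380 in knockout (SD, n = 3 each).

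**Figure D2:**
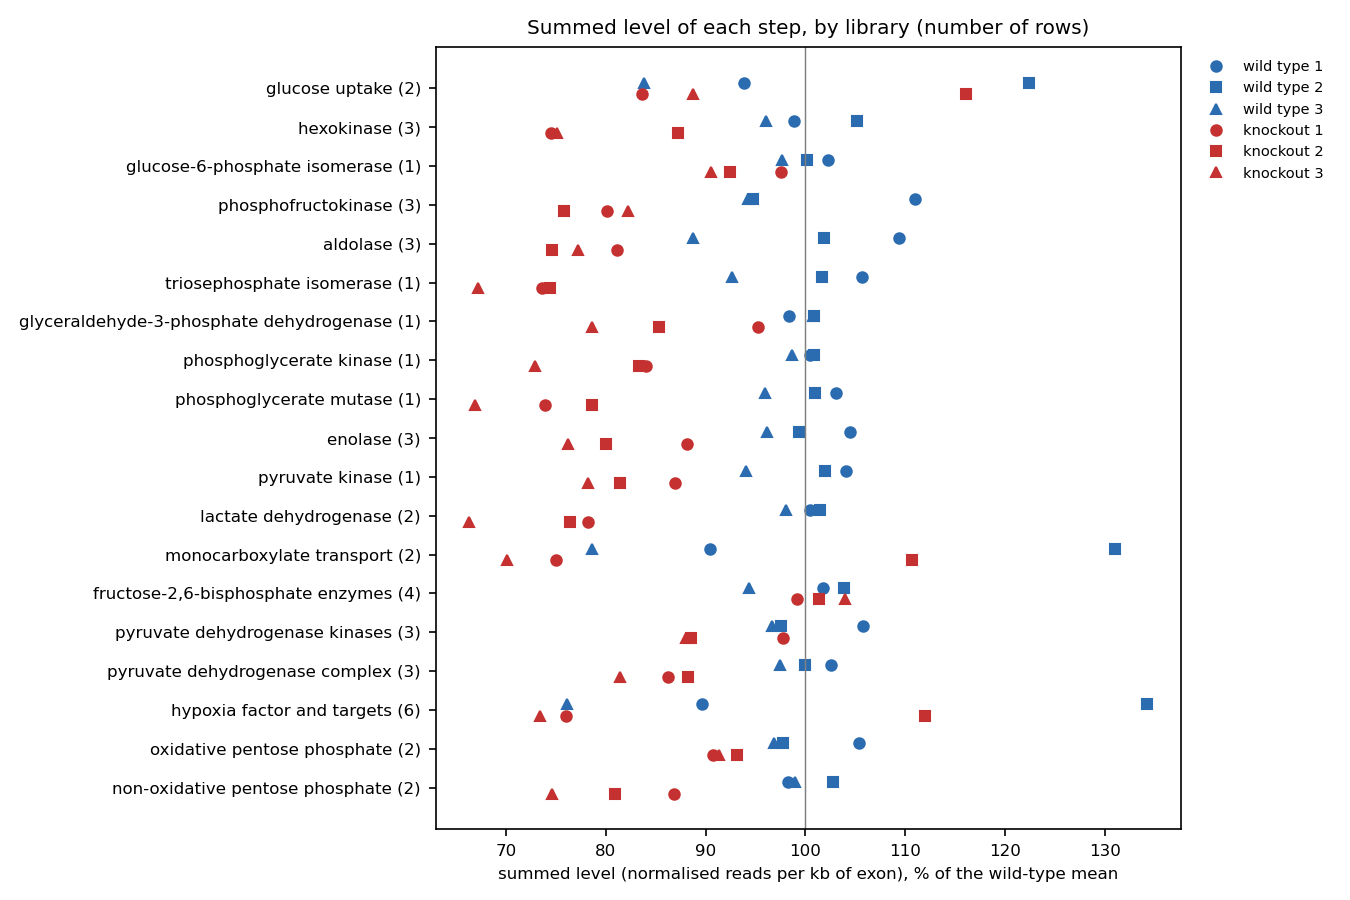
Summed level of each step (normalised reads per kb of exon, as % of the wild-type mean, x axis) in each library, with the number of rows in parentheses, blue for wild type, red for knockout and 1 marker shape for each library number. The red points lie left of the blue ones in 14 of 19 steps (11 with scaling by totals), and both number-2 libraries (squares) are the highest of their group for glucose uptake, hexokinase, monocarboxylate transport and the hypoxia genes.

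The promoters below are those of Hk3, Pfkl, P4ha1 and Ldha. Hk3 was the only member that rose, and Pfkl was the glycolytic fall with the smallest p. P4ha1 was the only hypoxia gene among the members that fell, and Ldha encodes the terminal enzyme of lactate production. These promoters were picked for those reasons, after the members' values were seen. Each is the 250 bases before a RefSeq start site (GRCm38.p6), and where a gene has several the one with most hypoxia core matches is printed. Capitals mark matches, on either strand, to the E-box CACGTG, which MYC and other bHLH factors bind, or to the hypoxia response core, ACGTG or GCGTG. Each E-box also holds an ACGTG on both strands.
Hk3, chr13:55021386-55021635, minus strand: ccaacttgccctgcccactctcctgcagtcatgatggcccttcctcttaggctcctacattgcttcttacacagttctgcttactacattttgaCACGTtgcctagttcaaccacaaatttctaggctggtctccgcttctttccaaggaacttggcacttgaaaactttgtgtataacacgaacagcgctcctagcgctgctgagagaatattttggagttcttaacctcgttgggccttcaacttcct
Pfkl, chr10:78009808-78010057, minus strand: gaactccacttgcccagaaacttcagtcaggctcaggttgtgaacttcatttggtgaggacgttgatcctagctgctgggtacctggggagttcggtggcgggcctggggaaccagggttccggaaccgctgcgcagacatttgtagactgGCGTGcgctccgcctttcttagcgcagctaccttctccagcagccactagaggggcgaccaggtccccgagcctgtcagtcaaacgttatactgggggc
Ldha, chr7:46845554-46845803, plus strand: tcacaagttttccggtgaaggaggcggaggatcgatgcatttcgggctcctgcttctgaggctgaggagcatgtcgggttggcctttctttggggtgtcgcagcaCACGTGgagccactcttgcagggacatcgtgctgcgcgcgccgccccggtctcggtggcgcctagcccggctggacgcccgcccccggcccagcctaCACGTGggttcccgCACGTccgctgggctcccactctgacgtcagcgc
P4ha1, chr10:59323046-59323295, plus strand: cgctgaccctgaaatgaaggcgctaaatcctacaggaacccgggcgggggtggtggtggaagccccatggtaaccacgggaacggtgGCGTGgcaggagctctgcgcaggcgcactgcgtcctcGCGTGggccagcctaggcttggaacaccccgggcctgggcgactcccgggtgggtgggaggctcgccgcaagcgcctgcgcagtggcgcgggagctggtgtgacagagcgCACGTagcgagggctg
The Ldha promoter shown holds 2 E-boxes, whose first bases lie 145 and 48 bases before the start. Of its 5 hypoxia core matches, 4 lie inside those E-boxes. The P4ha1 promoter holds 3 cores, at 163, 126 and 16 bases, while Pfkl and Hk3 hold 1 each, at 99 and 156 bases. Promoters were matched for 42 member symbols (63 promoters). For 47 of the 63, bases just after the start were found in a GENCODE transcript of the same gene. This held for the promoters shown for Hk3, Pfkl and P4ha1, but not for that of Ldha. Another Ldha promoter, for which it did hold, has 1 core, at 59 bases, and no E-box. Of the 16 promoters of genes that fell, 12 had a hypoxia core and 2 an E-box (Ldha and Pdk2), and of the 46 promoters of genes that were not called 35 had a core and 6 an E-box. Among all 32851 promoters of this length, 38.6% hold a core and 6.02% an E-box. These matches describe letters only.

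Glucose enters T cells through Glut1 (Slc2a1) and Glut3 (Slc2a3), and neither transporter gene was called. Slc2a1, which had more reads per kb, stood at 1705, 2447 and 1494 normalised reads in wild type and 1423, 2346 and 1588 in knockout. Library 2 was the highest of both groups, and the groups overlapped (log2 fold change -0.08 ± 0.24; limma adjusted p = 0.876). Slc2a3 had a log2 fold change of -0.01 and a range of 1775 to 2043 normalised reads over all 6 libraries.

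At hexokinase, which traps glucose as glucose-6-phosphate, 1 isoform fell and another rose. Hk1 (chr10:62268855-62379908), the broadly expressed mitochondria-bound form, stood at 5364, 4611 and 5103 normalised reads in wild type and 3966, 3405 and 3706 in knockout. The groups did not overlap, and Hk1 fell by 0.44 ± 0.09 on the log2 scale (limma adjusted p = 0.0193). Per kb of exon union Hk2 had 557 reads, Hk1 511 and Hk3 73.5, but per kb of the longest transcript Hk1 (1019) exceeded Hk2 (603). Hk2, the inducible form of growing cells, stood at 3659, 4520 and 3602 in wild type and 2179, 3514 and 2483 in knockout. Each knockout value was below each wild-type value, by a narrow margin for library 2 of knockout, and Hk2 did not pass the limma test (-0.55 ± 0.18; limma adjusted p = 0.0955), whereas DESeq2 called it (adjusted p = 0.0337).

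Hk3 (chr13:55005985-55021385), an isoform known from granulocytes and monocytes, was the only member that rose. It stood at 70.1, 162 and 85.9 normalised reads in wild type and 445, 462 and 399 in knockout. All knockout libraries were far above all wild-type ones, and library 2 was the highest of the wild types. The mean rose from 106 ± 49.1 to 436 ± 32.6 (SD, n = 3 each), a 4.11-fold difference (log2 fold change 2.11 ± 0.28; limma adjusted p = 0.00431). Its share of hexokinase transcript per kb went from 1.51%, 3.28% and 1.90% to 12.7%, 11.3% and 11.3%, while the shares of Hk1 and Hk2 overlapped between groups.

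The summed levels of myeloid markers, like Hk3, were higher in each knockout library than in any wild type. All 20 neutrophil and granulocyte precursor markers were found, none was at 0 in any library, and 10 rose, beside 5.32% of all genes. All 20 had a positive log2 fold change, but Ly6g was scarce and overlapped between groups (0.0392 to 0.326 CPM in wild type and 0.193 to 0.276 in knockout). Together the 20 markers reached 126, 470 and 207 CPM in the wild-type libraries and 1349, 1394 and 1097 in the knockouts. Library 2 was again the highest wild type. The defining granule genes were detected throughout, with Mpo at 6.93 to 23.4 CPM in wild type and 69.2 to 100.4 in knockout, and Elane at 2.72 to 9.36 and 27.0 to 38.9. Of 18 monocyte and macrophage markers 17 were found, none at 0, and 6 rose, beside 5.32% of all genes. Their sum was 64.1, 98.0 and 44.8 CPM in wild type and 169, 287 and 247 in knockout. Of the 17, 15 had a positive log2 fold change, C1qb among them near 0 (0.08), while C1qa (-0.32) and C1qc (-0.23) were negative. Among wild types, C1qa, C1qb, C1qc, Mrc1 and Vcam1 were highest in library 1. The part of myeloid cells in the change of Hk3, or in that of any other member, was not tested. The B-lineage sum was 3.74 to 4.58 CPM in wild type and 7.27 to 16.1 in knockout. Ebf1 and Ms4a1 were at 0 in some libraries, and 6 of 9 tested genes rose, beside 5.32% of all genes. The sums of 12 erythroid markers overlapped between groups (7.15 to 13.2 and 9.36 to 21.7 CPM), although 10 of 11 tested had a positive log2 fold change and Car1 was higher in each knockout library (0.716 to 2.00 CPM) than in any wild type (0.200 to 0.549). Of 12 stromal and endothelial markers 8 were found, with sums of 1191 to 1216 and 1509 to 1912 CPM. Nearly all of these sums came from Pdgfrb (617 to 1054 CPM over all libraries), Col1a2 (349 to 708) and Pecam1 (124 to 152). Cxcl12, Lepr, Pdgfra and Col3a1 reached at most 0.882 CPM, with Col3a1 at 0 in some libraries. Of 5 tested, 1 rose (Pdgfrb, 0.40), beside 5.32% of all genes, and 1 fell (Col1a1, -1.21, at 0.743 to 2.49 CPM), beside 3.43%.

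**Figure D3:**
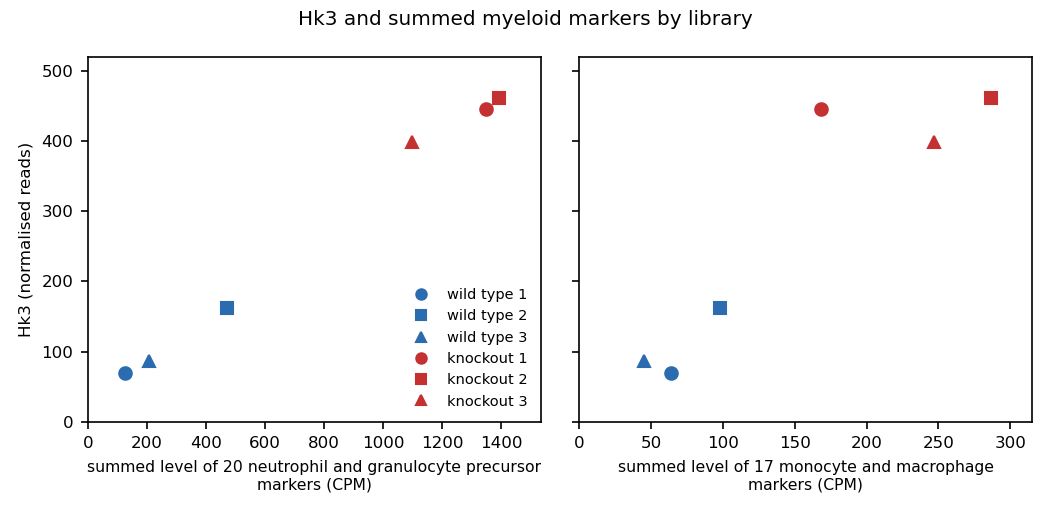
Hk3 (normalised reads, y axis) against the summed level of 20 neutrophil and granulocyte precursor markers (left) and 17 monocyte and macrophage markers (right), both in CPM, with 1 point per library. Knockout libraries (red) lie at 399 to 462 reads, wild-type libraries (blue) at 70.1 to 162, and wild-type library 2 is the highest blue point on both axes.

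Glucose-6-phosphate isomerase (Gpi1), which feeds fructose-6-phosphate to the next step, was not called (-0.10; limma adjusted p = 0.464). Phosphofructokinase, the main control point of the pathway, differed between groups in both amount and make-up. Pfkl (chr10:77986947-78010083), the liver-type subunit and the one with most reads per kb, stood at 9100, 7627 and 7093 normalised reads in wild type and 4876, 5123 and 5259 in knockout. The groups were well apart, and the mean was 35.9% lower in knockout (log2 fold change -0.64 ± 0.10; limma adjusted p = 0.00675). Pfkl was called in each of the 6 fits that left out 1 library. Pfkm, the muscle-type subunit, overlapped between groups (2182 to 2504 in wild type and 2044 to 2685 in knockout; 0.03). Pfkp, the platelet-type subunit, was below wild type in each knockout library without passing the test (-0.28; limma adjusted p = 0.0835).

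The share of Pfkl in phosphofructokinase transcript per kb went from 49.1%, 48.2% and 45.0% to 36.4%, 40.5% and 38.3%. That of Pfkm went from 27.0%, 27.5% and 28.9% to 40.1%, 32.3% and 35.4%, and neither pair of groups overlapped. Pfkp kept 24.7% in wild type and 25.7% in knockout, with overlap. Shares of the isoform with most reads per kb overlapped between groups in other steps. In wild type and knockout, Slc2a1 held 66.5% and 65.4% of glucose uptake, and Hk2 51.4% and 44.9% of hexokinase. Aldoa held 98.9% and 98.8% of aldolase, Eno1 87.3% and 86.6% of enolase, and Ldha 91.7% and 91.2% of lactate dehydrogenase. Such shares did not overlap in monocarboxylate transport, where Slc16a1 held 98.3% in wild type and 97.0% in knockout, and Slc16a3 held 1.68% and 2.97%.

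**Figure D4:**
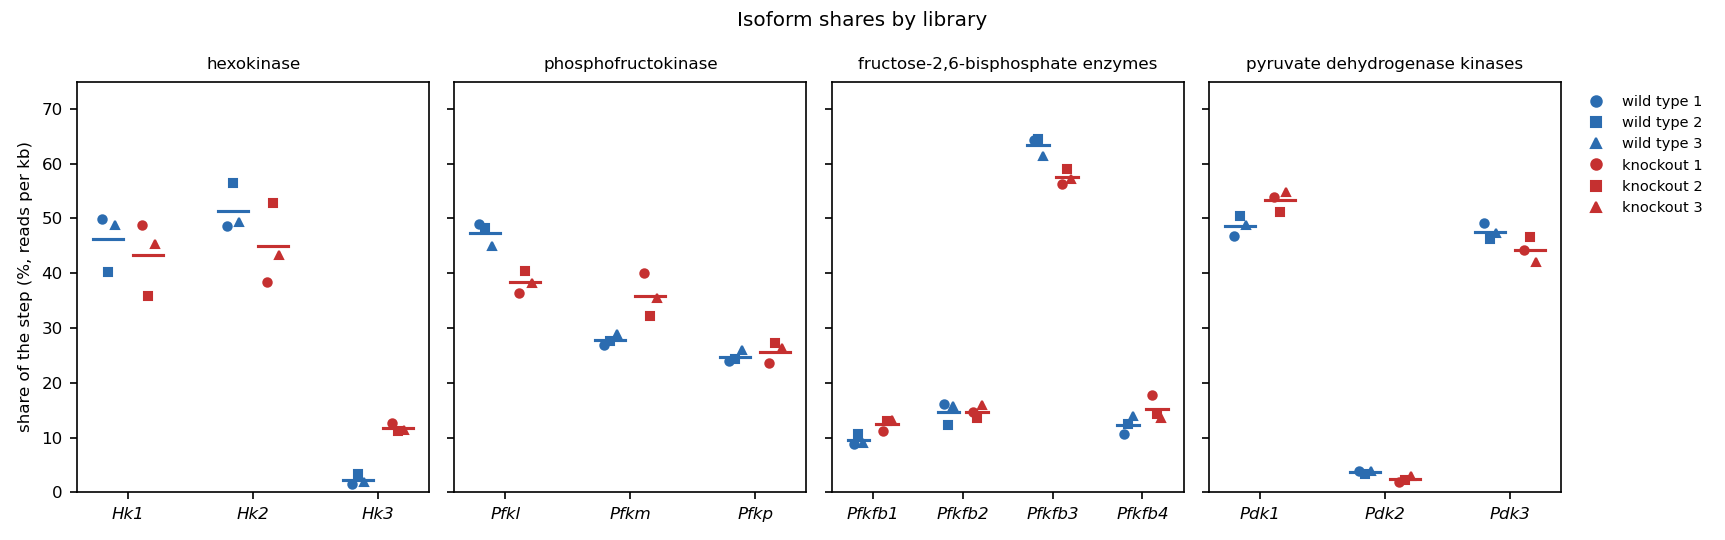
Share of each isoform in the summed level of its step (%, from normalised reads per kb of exon, y axis) by library, with horizontal lines at the group means. Shares are higher in every knockout library for Hk3 (2.23% to 11.8%), Pfkm (27.8% to 35.9%), Pfkfb1 (9.52% to 12.5%) and Pdk1 (48.7% to 53.3%). They are lower for Pfkl (47.4% to 38.4%), Pfkfb3 (63.3% to 57.5%) and Pdk2 (3.71% to 2.43%).

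From aldolase to pyruvate kinase, Aldoa, Tpi1, Pgk1 and Pgam1 fell. Aldolase A (Aldoa, chr7:126795234-126800751), which splits fructose-1,6-bisphosphate, stood at 20289, 18904 and 16459 normalised reads in wild type and 15048, 13761 and 14360 in knockout. The groups did not overlap, and Aldoa fell by 0.36 ± 0.09 on the log2 scale (limma adjusted p = 0.0420). The other Aldoa row (5.01 to 17.2 normalised reads) and the brain-type Aldoc (124 to 206) overlapped between groups.

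Triosephosphate isomerase (Tpi1, chr6:124810586-124814296), which interconverts the 3-carbon products, stood at 15145, 14571 and 13275 normalised reads in wild type and 10552, 10664 and 9630 in knockout. The gap between the groups was wider than the spread within either, and Tpi1 fell by 0.48 ± 0.08 (limma adjusted p = 0.0105). Gapdh, the oxidative step and one of the most abundant members (18509 reads per kb of exon union), ranged from 80710 to 82776 in wild type and from 64562 to 78140 in knockout without passing the test (-0.21; limma adjusted p = 0.167). Phosphoglycerate kinase 1 (Pgk1, chrX:106187100-106203699), which makes the first ATP of the pathway, stood at 22862, 22947 and 22449 in wild type and 19115, 18972 and 16585 in knockout. The wild-type libraries lay close together and above all knockouts (-0.32 ± 0.08; limma adjusted p = 0.0409).

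Phosphoglycerate mutase 1 (Pgam1, chr19:41911923-41918660), which moves the phosphate group ahead of enolase, stood at 6670, 6531 and 6209 normalised reads in wild type and 4783, 5088 and 4332 in knockout. Again the groups did not overlap (-0.45 ± 0.08; limma adjusted p = 0.0129). Enolase 1 (Eno1), the main enolase, stood at 51235, 48649 and 47261 in wild type and 43222, 39212 and 36630 in knockout. All knockout values were lower, but Eno1 missed the threshold (-0.31 ± 0.09; limma adjusted p = 0.0573). Eno3, the muscle form, was likewise wholly below wild type and not called (-0.24), and the neuronal form Eno2 (39.8 to 106 normalised reads) overlapped. Pyruvate kinase M (Pkm), which makes pyruvate and ATP, was also wholly below wild type and not called (-0.28 ± 0.08; limma adjusted p = 0.0654).

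Lactate dehydrogenase A (Ldha, chr7:46841475-46855627), which turns pyruvate into lactate, was among the 3 most abundant members per kb, with Gapdh and Pkm. Their order depended on the length used: per kb of exon union Gapdh (18509) was followed by Pkm (17048) and Ldha (14298), and per kb of the longest transcript Pkm (35056) by Ldha (26074) and Gapdh (23258). It stood at 54952, 55336 and 53611 normalised reads in wild type and 42049, 41836 and 36166 in knockout. The 3 wild-type libraries were within a narrow band above all knockouts, and Ldha fell by 0.45 ± 0.09 (limma adjusted p = 0.0135). Ldhb, the heart-type subunit, was wholly below wild type and not called (-0.36 ± 0.12; limma adjusted p = 0.0831).

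The lactate exporters were not called. Slc16a1, which encodes the main monocarboxylate transporter MCT1, stood at 8032, 11620 and 6952 normalised reads in wild type and 6577, 9730 and 6092 in knockout, with library 2 the highest of both groups (-0.24 ± 0.25; limma adjusted p = 0.600). Slc16a3, which encodes the hypoxia-induced MCT4, was scarce and overlapped (146 to 229 and 221 to 305; 0.58 ± 0.21; limma adjusted p = 0.114), and it was called only without wild-type library 2 or with a replicate block.

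The bifunctional enzymes that make and remove fructose-2,6-bisphosphate, the activator of phosphofructokinase, were not called. Pfkfb3, the most abundant per kb, stood at 2167, 2218 and 1917 normalised reads in wild type and 1847, 1984 and 1973 in knockout, with overlap (-0.12 ± 0.09; limma adjusted p = 0.467). Pfkfb1 (0.41) and Pfkfb4 (0.32) were above wild type in each knockout library without passing the test, and Pfkfb2 (0.03) overlapped.

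Pyruvate dehydrogenase links glycolysis to the citric acid cycle, and its kinases switch it off. Pdk1, the kinase with most reads per kb, stood at 8552, 8484 and 8138 normalised reads in wild type and 9101, 7808 and 8327 in knockout. The groups overlapped fully (log2 fold change 0.00 ± 0.08; limma adjusted p = 0.995). Pdk2 (chr11:95026258-95041354), a scarcer kinase, stood at 291, 232 and 259 in wild type and 130, 144 and 190 in knockout. All knockout values were lower, and Pdk2 fell by 0.76 ± 0.19 (limma adjusted p = 0.0358). Pdk3 was wholly below wild type and not called (-0.23). Per kb, the share of Pdk1 among these kinases went from 48.7% to 53.3% and that of Pdk2 from 3.71% to 2.43%, both without overlap.

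Pdha1 (chrX:160122209-160138413), the catalytic E1 alpha subunit of the complex that these kinases phosphorylate, stood at 11749, 10282 and 10896 normalised reads in wild type and 8996, 8784 and 8197 in knockout. The groups did not overlap (-0.34 ± 0.08; limma adjusted p = 0.0330). Pdhb, its E1 beta partner, overlapped (-0.09), and Dlat, the E2 subunit, was wholly below wild type and not called (-0.23).

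In the pentose phosphate pathway 1 of 4 members fell. G6pdx, the entry enzyme that makes NADPH, stood at 3303, 2964 and 3041 normalised reads in wild type and 3031, 3318 and 3030 in knockout. The groups overlapped (0.01 ± 0.08; limma adjusted p = 0.950). Pgd, the next NADPH-making enzyme, was wholly below wild type and missed the threshold (-0.27 ± 0.08; limma adjusted p = 0.0575).

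Transketolase (Tkt) and transaldolase (Taldo1) return pentoses to glycolysis. Tkt, the more abundant per kb, stood at 29666, 31007 and 30622 normalised reads in wild type and 27985, 25144 and 23184 in knockout. Its groups did not overlap, and it was not called (-0.26 ± 0.09; limma adjusted p = 0.0954). Taldo1 (chr7:141392199-141402968) stood at 6526, 6826 and 6344 in wild type and 5249, 5158 and 4766 in knockout. Its groups were also apart, and Taldo1 fell by 0.38 ± 0.08 (limma adjusted p = 0.0194).

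Among the hypoxia genes 1 of 6 was called. P4ha1 (chr10:59323296-59373304), a collagen prolyl hydroxylase subunit and known hypoxia target, stood at 2185, 2174 and 1846 normalised reads in wild type and 1435, 1415 and 1393 in knockout. The knockout libraries lay within a narrow band below all wild types, and P4ha1 fell by 0.54 ± 0.10 (limma adjusted p = 0.0102). Hif1a, the oxygen-regulated subunit of the factor, overlapped (5842 to 7141 and 4969 to 6938; -0.20 ± 0.13; limma adjusted p = 0.386). Egln1, the main oxygen-sensing prolyl hydroxylase that marks HIF for destruction, was wholly below wild type and not called (-0.15). Bnip3, a mitophagy receptor, was nearly absent (26.0 to 49.1 normalised reads).

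The induced targets Egln3 and Vegfa were highest in library 2 of both groups. Egln3, a hypoxia-induced prolyl hydroxylase and the most abundant hypoxia gene per kb, stood at 14360, 25401 and 11803 normalised reads in wild type and 12548, 20234 and 12166 in knockout (-0.16 ± 0.36; limma adjusted p = 0.828). Vegfa, the angiogenic growth factor, stood at 95.1, 603 and 36.2 in wild type and 94.9, 840 and 166 in knockout (0.87 ± 1.43; limma adjusted p = 0.765). In both genes the groups overlapped, and library 2 stood well above the other libraries of its group. In all, 11 of the 44 rows had library 2 highest in both groups, as did 20.9% of all genes, so the number is near the background. The labels do not say what the library numbers share.

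**Figure D5:**
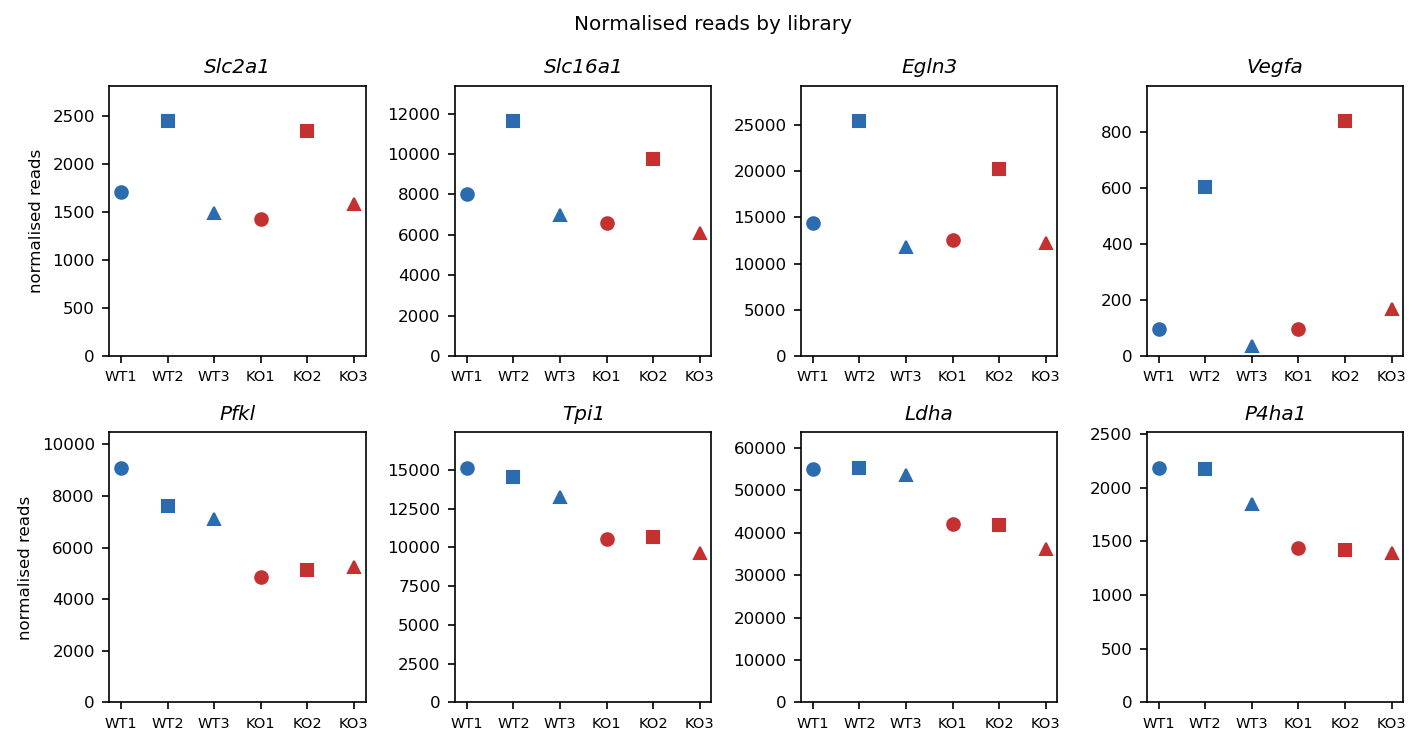
Normalised reads (y axes, each from 0) of 8 members in each library, in blue for wild type and red for knockout, with 1 marker shape for each library number. In the top row (Slc2a1, Slc16a1, Egln3, Vegfa) both number-2 libraries stand highest, and in the bottom row (Pfkl, Tpi1, Ldha, P4ha1) every knockout library lies below every wild-type one.

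Other genes of these pathways were taken from lists of 86 symbols, of which 81 were found. Of 72 tested, 3 rose and 4 fell, numbers near the 5.32% and 3.43% of all genes, and the median log2 fold change was -0.01, as over all genes. Of 29 other glycolysis and pyruvate genes 1 fell (Me2), of 9 other pentose phosphate genes 1 fell (Rpe), of 29 other hypoxia factors and targets 2 rose (Hif3a, Ak4) and 2 fell (Fam162a, Plod2), and of 5 sugar-sensing and MYC regulators 1 rose (Txnip).

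Hif3a, which encodes a HIF alpha subunit with forms that oppose HIF-1, stood at 481, 495 and 384 normalised reads in wild type and 1123, 1014 and 1265 in knockout. All knockout libraries were above all wild-type ones, and Hif3a rose by 1.32 ± 0.14 on the log2 scale (limma adjusted p = 0.00184). Fam162a, a mitochondrial hypoxia target, stood at 2415, 2192 and 2301 in wild type and 1623, 1591 and 1394 in knockout. It fell by 0.59 ± 0.09 (limma adjusted p = 0.00716), with no overlap.

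Rpe, the ribulose-5-phosphate epimerase of the pentose phosphate pathway, stood at 2477, 2393 and 2374 in wild type and 1742, 1958 and 1690 in knockout. All knockout values were lower (-0.43 ± 0.09; limma adjusted p = 0.0193). Me2, the mitochondrial malic enzyme, stood at 4793, 4246 and 4628 in wild type and 3619, 3734 and 3486 in knockout. It fell by 0.33 ± 0.08 (limma adjusted p = 0.0336), again with no overlap. The remaining calls were Ak4, a mitochondrial adenylate kinase (1.17), Txnip, the glucose-responsive inhibitor of glucose uptake (0.55), and Plod2, a collagen lysyl hydroxylase (-0.61; limma adjusted p = 0.0457, edgeR adjusted p = 0.0561). Over the 6 fits that each left out 1 library, Hif3a and Fam162a were called in all 6, Rpe and Plod2 in 2, and Me2, Ak4 and Txnip in 1.

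Some of these values could include reads of other genes, because the strand setting of the counting is not given in the sources used here. Exons of 17 members overlap those of another gene. Partners of uncalled members included abundant genes: Senp1 (mean 4454 normalised reads) beside Pfkm (2355), Pitrm1 (6314) beside Pfkp (7564), Ikbkg (3011) beside G6pdx (3115), Iffo1 (2844) beside Gapdh, Yod1 (1532) beside Pfkfb2 (472) and Apex2 (927) beside Pfkfb1 (196). The values of these members, and the shares of Pfkm and Pfkfb1 in their steps, are uncertain to that extent. Among called members the overlapping partners were scarce: Hk1os beside Hk1 (mean 91.2 normalised reads), Unc5a beside Hk3 (8.64), Fam57b beside Aldoa (3.69), Spsb2 beside Tpi1 (137) and Map3k15 beside Pdha1 (53.9). The handling of reads that fit several places is not given either. The named pseudogenes and copies of Aldoa, Eno1, Gapdh, Ldha, Pgam1 and Pgk1 had at most 1.73% of the reads of their member (Pgam1-ps2). If reads that fit several places were left out of the counting, these values cannot show how many reads a member lost.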

How the data were processed

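PolyA RNA-seq libraries from 6 T-ALL samples were compared (3 Phf6-WT, 3 Phf6-KO). Paired reads of 150 bp came from NEBNext Ultra RNA libraries, per the labels' protocols. The tools named by the submitters' processing notes are bcl2fastq 1.8.4, STAR 2.6.0a, featureCounts and DESeq2, with GRCm38. Annotation, strand setting and the treatment of multi-mapping reads are not stated there or in the labels. The unit of the deposited table is a signal. Its values behave as counts that the authors divided by 1 size factor per library, and whole reads were recovered for 100% of them (tolerance 0.01); they are called normalised reads. Of 23314 rows, 8 lacked an identifier and were dropped (at most 0.00106% of the reads in any library). Positions and exon lengths were taken from GENCODE M21 (GRCm38), in which 23277 identifiers were found.

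Testing used limma 3.58.1 in R 4.3.3 on log2(value + 2), with the trend and robust options and group as the only term. The 17993 genes with at least 10 normalised reads in 3 or more libraries were tested. Benjamini-Hochberg adjustment ran over all of them, at 0.05. The pseudocount makes fold changes of low genes too small. Reads per kb use the union of a gene's exons unless stated. With the recovered reads, edgeR 4.0.16 called 1469 genes and DESeq2 1.42.0 called 2233. On simulated counts for 17993 genes, 61 of 100 genes changed 2-fold and 27 of 100 changed 1.5-fold were recovered, and 13 of 101 calls were false. Replicate libraries differed beyond sampling noise (chi-square 11.9 to 51.7 per degree of freedom). Members and lists were chosen with earlier results of these data known. Values in all libraries are given for called members, for the member with most reads per kb in each step of several, for members with separate groups and a log2 fold change of at least 0.5 in size, and for the 4 other pathway genes with the smallest p. Alternatives covered tools, scaling, filters, pseudocounts, empirical Bayes options, a replicate block, each library left out and gene lengths. The background among abundant genes and the order of members by longest transcript were added after seeing the data. Plots were made in Python 3.11.15 with matplotlib 3.10.9.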

Additional observations from a re-analysis of the deposited data

How the results depend on the processing

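None of the 12 called members changed direction under the 18 alternatives, and Hk3 was called in all of them. Pfkl lost its call only without trend and robust fitting (limma adjusted p = 0.0505). Of the 32 members not called, 22 kept their direction throughout. Among the members, falls numbered 7 with upper quartile scaling and 7 with totals alone; both lost Aldoa, Pgk1, Pdk2 and Pdha1. Without trend and robust fitting limma called 0 falls (edgeR 11, DESeq2 15). With each library left out in turn, members gave 1 to 2 rises and 1 to 9 falls, lowest without wild-type library 1 or knockout library 3. Other pathway genes gave 1 to 4 rises and 1 to 5 falls, and all genes 180 to 1155 rises and 73 to 786 falls. The cause was not tested.

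Over all genes, falls numbered 406 with upper quartile scaling, 300 with totals, 124 without trend and robust fitting (528 rises) and 974 without both number-2 libraries. Rises made up 60.8% of calls with the authors' scaling, 72.1% with upper quartile and 80.2% with totals. Other pathway genes gave 6 rises and 8 falls with DESeq2, 5 and 2 with upper quartile, 6 and 2 with totals, 1 and 1 without trend and robust fitting, and 6 rises without both number-2 libraries. Whether library numbers pair the samples could not be decided, because each group holds too few libraries. Deviations of same-numbered libraries correlated at 0.0121, 0.50 and 0.143. The number-2 value was the highest of all pairs between groups, but not every library correlated best with its own number. A replicate block gave 1459 rises and 1109 falls over all genes, 2 and 15 among members (adding Slc16a3 to the rises) and 7 and 11 among other pathway genes.

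With totals alone, the log2 difference of summed steps was -0.013 for glucose-6-phosphate isomerase, -0.20 for pyruvate kinase, 0.11 for the fructose-2,6-bisphosphate enzymes, -0.15 for the pyruvate dehydrogenase complex and -0.040 for oxidative pentose phosphate enzymes. The gain in Hk3 share was 9.54 percentage points, 7.35 with the longest transcript as length and 5.20 without length; the Pfkp gain was 3.03 without length. Log2 fold changes near 0 turned. Slc2a1 was 0.0059 with totals; Slc2a3 was 0.0028 with edgeR, 0.0047 with TMM, 0.036 with upper quartile, 0.069 with totals and 0.034 without both number-2 libraries, where Pfkfb2 was -0.0072 and G6pdx -0.065. With each library left out, ranges crossed 0 for Slc2a1 (-0.29 to 0.13), Slc2a3 (-0.068 to 0.034), Pfkm (-0.055 to 0.14), the scarce Aldoa row (-0.59 to 0.12), Eno2 (-0.15 to 0.52), Pfkfb2 (-0.064 to 0.11), Pdk1 (-0.057 to 0.053), Egln3 (-0.40 to 0.16), Vegfa (-0.035 to 1.98) and G6pdx (-0.032 to 0.057). Depth limits mainly the scarcest members, such as Bnip3, Eno2 and the scarce Aldoa row.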
